A study of Zea mays with 6 samples.

Results

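A group of 118 maize genes, of 39756 gene IDs measured, had lower transcript levels in every mop1 mutant anther library than in any library of their wild-type siblings (WT). A gene entered the group when its lowest WT value was at least 1.5 times its highest mop1 value and the mean of all 6 libraries was at least 50 normalized counts. In addition, mop1 replicate 3 had to exceed 0.25 times the lower of the other mop1 values, unless no mop1 value was above 1. Of all 23150 tested genes, 10.2% had every mop1 library below every WT library and 0.942% met the ratio of 1.5. An interval of IDs crowded with genes changed in mop1 was left out, and 8 of the 220 tested genes inside it met the other conditions. The members were therefore chosen by the mop1 and WT values themselves, and their differences between the genotypes are given as a description. Counts of members called by a fit over all genes are also given, and nothing is read from them.

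The tissue was immature anthers whose meiocytes were in the first meiotic division. The mutants were Mo17/B73 hybrids homozygous for mop1 (mop1/mop1), and the controls were +/+ siblings in the same hybrid background, with 3 libraries of total RNA each. The labels give meiocytes as the cell type, but the RNA came from anthers, and no age, allele number or pooling of plants is given. In bulk RNA, fewer cells of a type and less RNA per cell cannot be told apart. Nothing in the labels says that the replicates were separate plants, so the spread between libraries may be partly technical.

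The MOP1 protein acts in RNA-directed DNA methylation as an RNA polymerase that copies RNA. It makes double-stranded RNA that is cut into small interfering RNAs, which guide DNA methylation to transposons, often those close to genes. Maize plants without it lose much of this methylation at the edges of transposons near genes, and silenced transposons and paramutable alleles can become active again. A maize anther at this stage holds meiocytes surrounded by somatic wall layers, among them the tapetum, a secretory layer that nourishes the meiocytes and later the pollen.

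The deposited table does not pair its IDs with gene names, and 0 of the IDs matched the reference gene table used here. For that reason the functions of the members, the level of the mop1 transcript and the markers of anther cell types were not analysed here. Members are given by rank, and IDs are printed for 2 of them, the one with the largest ratio of lowest WT to highest mop1 value and the one with the highest WT mean.

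The libraries held between 22635163 and 26531475 reads assigned to genes. One of them, mop1 replicate 3, stood apart, and its label is taken here as given. At 540 of the tested genes mop1 replicate 3 was over 4 times lower than each of the remaining libraries on the value + 1 scale, and 3 to 56 genes were so placed in the others. On log2 values over the tested genes, Pearson's r of mop1 replicate 1 was 0.96 both with mop1 replicate 2 and with WT replicate 1, and 0.86 with mop1 replicate 3. The highest r of mop1 replicate 3 was with a WT library, 0.910 with WT replicate 3. It was 0.887 with WT replicate 1, 0.848 with WT replicate 2 and 0.886 with mop1 replicate 2, and the reason was not tested. These values are across genes, which are not independent replicates. Genes counted as tested where at least 3 libraries reached 10 normalized counts, a filter that all 118 members passed. None of the members was among the 540, a count that the condition on mop1 replicate 3 largely fixes. All values below are normalized counts, that is, reads per gene divided by 1 factor per library by the authors, and are not corrected for gene length.

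The lowering ranged from slight to nearly complete. The ratio of the WT mean to the mop1 mean ran from 1.64 to 510, with a median of 2.75. It was under 2 at 22 members, from 2 to 4 at 56, from 4 to 8 at 26 and at least 8 at 14. A WT mean at least 2 times the mop1 mean was found at 96 members, against 4.43% of all tested genes. The median difference, mop1 minus WT on the log2(value + 1) scale, was -1.51 over the members and -0.02 over all tested genes. These contrasts follow from how the members were chosen.

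Expression of the members in WT anthers also spanned a wide range, from a mean of 85.0 to 72656 normalized counts, with a median of 372. In mop1 the member means lay between 0.50 and 31245, with a median of 137. The 118 genes took 1.30%, 1.46% and 1.45% of all normalized counts in WT replicates 1 to 3. In mop1 replicates 1 to 3 they took 0.781%, 0.429% and 0.421%. The share was lower in each mop1 library than in any WT library, which the choice of members fixes. In mop1 replicate 1 the share lay between those of the other mop1 libraries and WT. Without the most abundant member the shares were 0.932% to 1.09% in WT and 0.293% to 0.523% in mop1.

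**Figure D1:**
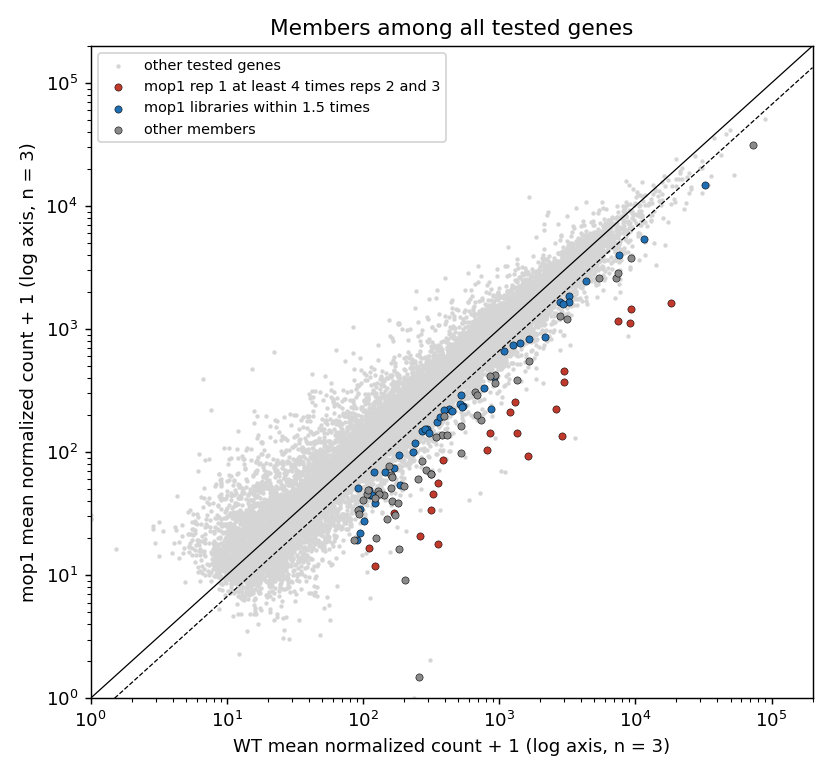
Mean normalized count plus 1 in mop1 (vertical, log axis) against WT (horizontal, log axis), n = 3 libraries each, for 23150 tested genes. The 118 members are larger points marked by their pattern across the mop1 libraries, and other tested genes are light grey. Red marks members with mop1 replicate 1 at least 4 times replicates 2 and 3. Blue marks those with all mop1 libraries within 1.5 times, and darker grey the other members. The solid line marks equal means and the dashed line a WT mean 1.5 times the mop1 mean. The members lie below the dashed line from the low to the very high end of expression, and the red members have WT to mop1 ratios of at least 4.54, the blue ones at most 4.93.

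By abundance, the members made up 2.39% of the 377 tested genes with a mean of at least 5000 (9 genes), and 0.362% of the 5253 genes with a mean from 1000 to 5000 (19 genes). Between 500 and 1000 they made up 0.295%, or 13 of 4401 genes. At the low end, from 50 to 100, they made up 1.39% (26 of 1864). The mirrored rule for genes raised in mop1, without the condition on mop1 replicate 3, gave 86 genes, of which 2 had a mean of at least 5000 and 33 a mean from 50 to 100. The median over all 6 libraries was 259 for the lowered genes and 132 for the raised ones.

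The most abundant member, Zm00001eb372830, was second among all genes by its WT mean. It had 73209, 73471 and 71287 normalized counts in WT replicates 1 to 3 and 46804, 22290 and 24639 in mop1 replicates 1 to 3. The WT libraries were almost equal, while mop1 replicate 1 held about as much as the other mop1 libraries added together. Its mean fell from 72656 ± 1193 to 31245 ± 13526 (SD, n = 3 each), a ratio of 2.33. The member second by WT mean had 38019, 30037 and 28873 in WT and 17522, 13095 and 13443 in mop1, so both groups were fairly even and well apart. It was 1 of the 10 most abundant genes in WT anthers and had rank 30 by mop1 mean.

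The largest ratio of WT to mop1 mean was at Zm00001eb018590. It had 234, 285 and 248 normalized counts in WT replicates 1 to 3 and 0.776, 0 and 0.727 in mop1 replicates 1 to 3. The gene was expressed at a moderate level in every WT library and was at 1 read, no read and 1 read in the mop1 libraries. The 939 WT reads against 2 mop1 reads gave a ratio of 504, with an exact 95% counting interval of 139 to 4171. The interval pools the reads of each genotype and covers counting error only, not the spread between libraries. The gene was picked for its large ratio, so the interval is no test of that ratio. Its mean was 256 ± 26.7 in WT and 0.50 ± 0.43 in mop1 (SD, n = 3 each). It was the 1 member with no mop1 value above 1.

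Ordered by the ratio of lowest WT to highest mop1 value, the second member was far from the first. It had 105, 379 and 127 normalized counts in WT and 16.3, 1.55 and 6.55 in mop1, a ratio of lowest WT to highest mop1 value of 6.47. The WT libraries themselves differed by 3.59 times at this gene, with WT replicate 2 the highest. The median of that ratio over all members was 1.71.

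The members fell into different patterns across the mop1 libraries, defined here after the values were seen. At 45 members the highest mop1 value was within 1.5 times the lowest, and these are called evenly lowered. At 24 members mop1 replicate 1 was at least 4 times both other mop1 libraries. The remaining 49 met neither condition. Among these, mop1 replicate 1 was the highest mop1 library at 34, replicate 3 at 10 and replicate 2 at 5. Among all tested genes, 42.1% were as even across the mop1 libraries and 1.03% had mop1 replicate 1 at least 4 times the others. The corresponding shares of the members were 38.1% and 20.3%.

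**Figure D2:**
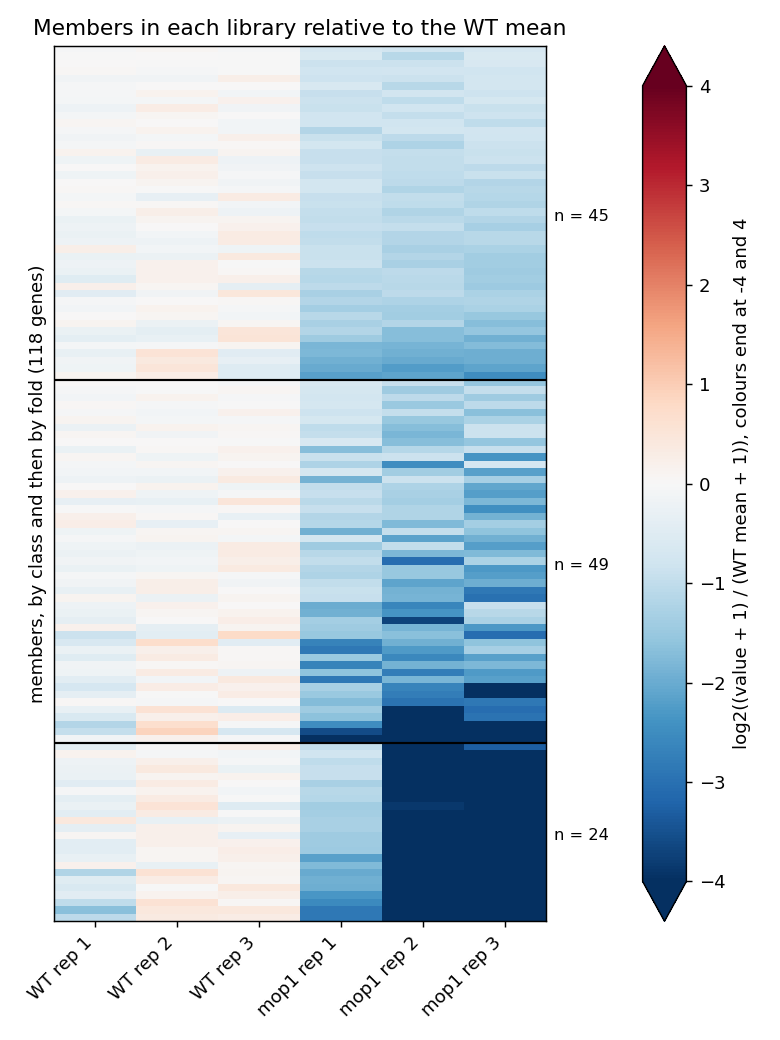
Each row is 1 of the 118 members and each column a library. Colour gives the log2 ratio of the value plus 1 to the WT mean plus 1, with colours ending at -4 and 4, and black lines part the 45 evenly lowered members (top), the 49 in neither class (middle) and the 24 with mop1 replicate 1 apart (bottom). In the bottom block mop1 replicate 1 is pale to mid blue, while mop1 replicates 2 and 3 are at the dark end of the scale.

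The evenly lowered members had WT means from 90.1 to 32310 normalized counts and ratios of WT to mop1 mean from 1.64 to 4.93, with a median of 2.08. Their median level as a percent of the WT mean was 52.7% in mop1 replicate 1, 47.4% in replicate 2 and 45.4% in replicate 3. At 35 of the 45, the WT libraries were also within 1.5 times of each other. That each mutant library kept a similar part of the WT level at these genes follows from how the class was defined. A lowest mop1 value of 0 cannot meet the condition of 1.5 times. Zm00001eb018590, at 0.776, 0 and 0.727 in mop1, is therefore outside the class, and the range of ratios above does not cover it.

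Single genes of this class are given as examples, and close mop1 values at them follow from how the class was defined. The member ranked 24 by WT mean had 2000, 2372 and 2096 in WT and 839, 847 and 901 in mop1. The mop1 libraries were nearly the same, and every one was well below the lowest WT library. The member ranked 38 had 784, 1135 and 692 in WT and 228, 216 and 224 in mop1, so its WT libraries varied more than its mop1 libraries, and the level left in mop1 was 24.8% to 26.2% of the WT mean. The member ranked 79 had 224, 231 and 237 in WT and 102, 97.4 and 98.9 in mop1. Its spread within each genotype was small, with a mean of 231 ± 6.48 in WT and 99.6 ± 2.60 in mop1 (SD, n = 3 each).

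The 24 members with mop1 replicate 1 apart had a median WT mean of 1029 normalized counts, against 394 for the evenly lowered ones. Their median level was 37.4% of the WT mean in mop1 replicate 1, and 0.269% and 0.521% in mop1 replicates 2 and 3. Values under 10 normalized counts were found at 15 of the 24 in mop1 replicate 2 and at 15 in mop1 replicate 3, and at 0 in mop1 replicate 1. No read was found at 4 of them in mop1 replicate 2. The 24 genes together took 0.253% to 0.397% of the normalized total in WT, 0.126% in mop1 replicate 1, and 0.0020% and 0.0019% in mop1 replicates 2 and 3.

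In this class the third member by WT mean had 12982, 22424 and 19246 normalized counts in WT replicates 1 to 3 and 4830, 6.96 and 2.91 in mop1 replicates 1 to 3. It was among the most abundant WT transcripts, at rank 34, and almost absent from mop1 replicates 2 and 3. The member sixth by WT mean had 8973, 10139 and 8622 in WT and 4323, 20.1 and 11.6 in mop1. The seventh had 6769, 10357 and 10123 in WT and 3370, 1.55 and 10.2 in mop1. At both genes mop1 replicate 1 held a sizeable part of the WT level, 46.8% and 37.1% of the WT mean, and the other mop1 libraries held under 1%. A mean over the 3 mop1 libraries describes none of them at these genes, where the SD exceeded the mean (1613 ± 2786 at the third member).

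**Figure D3:**
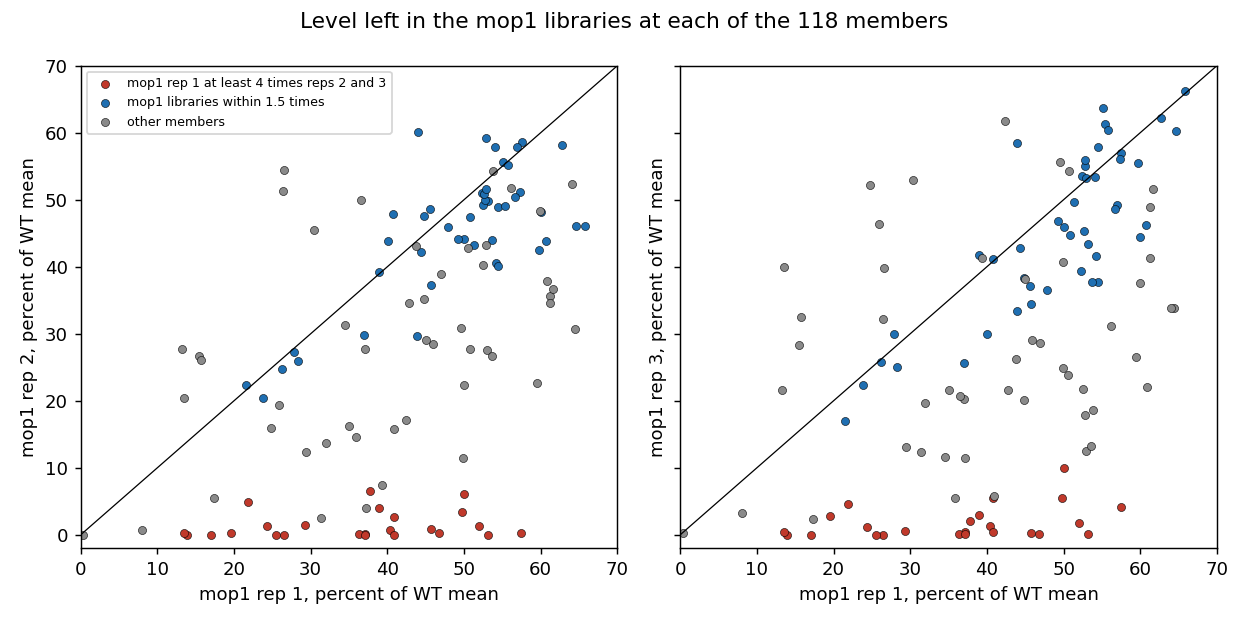
Level left at each of the 118 members as a percent of its WT mean, in mop1 replicate 1 (horizontal) against mop1 replicate 2 (left) and mop1 replicate 3 (right), with the line of equal values. Evenly lowered members lie near the line, and the 24 members with mop1 replicate 1 apart lie along the bottom, at 13.5% to 57.4% in mop1 replicate 1 and at most 6.56% in mop1 replicate 2 and 10.01% in mop1 replicate 3.

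Over all 118 members, mop1 replicate 1 was the highest mop1 library at 83 (70.3%), replicate 3 at 20 and replicate 2 at 15. Among all tested genes mop1 replicate 1 was highest at 28.7%, and mop1 replicate 3 at 45.6%. The lowest mop1 library was replicate 2 at 57 members, replicate 3 at 49 and replicate 1 at 12. On the WT side, WT replicate 1 was lowest at 66 members (55.9%), against 29.2% of all tested genes. At the 24 genes above it was lowest at 17. WT replicate 1 was the lowest WT library and mop1 replicate 1 the highest mop1 library together at 46 members (39.0%), against 5.97% of the tested genes. The rule is set by the lowest WT and the highest mop1 value, so these shares are not independent of it.

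Each class sets a condition on every mop1 library, so leaving out a library can only keep or raise its count. With mop1 replicate 3 not used, mop1 replicate 1 was at least 4 times mop1 replicate 2 at 30 members (25.4%), against 1.54% of the tested genes. With mop1 replicate 2 not used, it was at least 4 times mop1 replicate 3 at 29 members (24.6%), against 7.14% of the tested genes. The values of mop1 replicates 1 and 2 were within 1.5 times of each other at 61 members (51.7%), against 78.1% of the tested genes. The rule used these same values, so none of these shares is independent of it. The evenly lowered members numbered 57 without replicate 2 and 70 without replicate 1, the latter a rise of over 1.5 times. Another 22 genes, all outside the left-out interval, met the ratio and the mean but not the condition on mop1 replicate 3. Of these, 10 also had mop1 replicate 1 at least 4 times both other mop1 libraries.

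**Figure D4:**
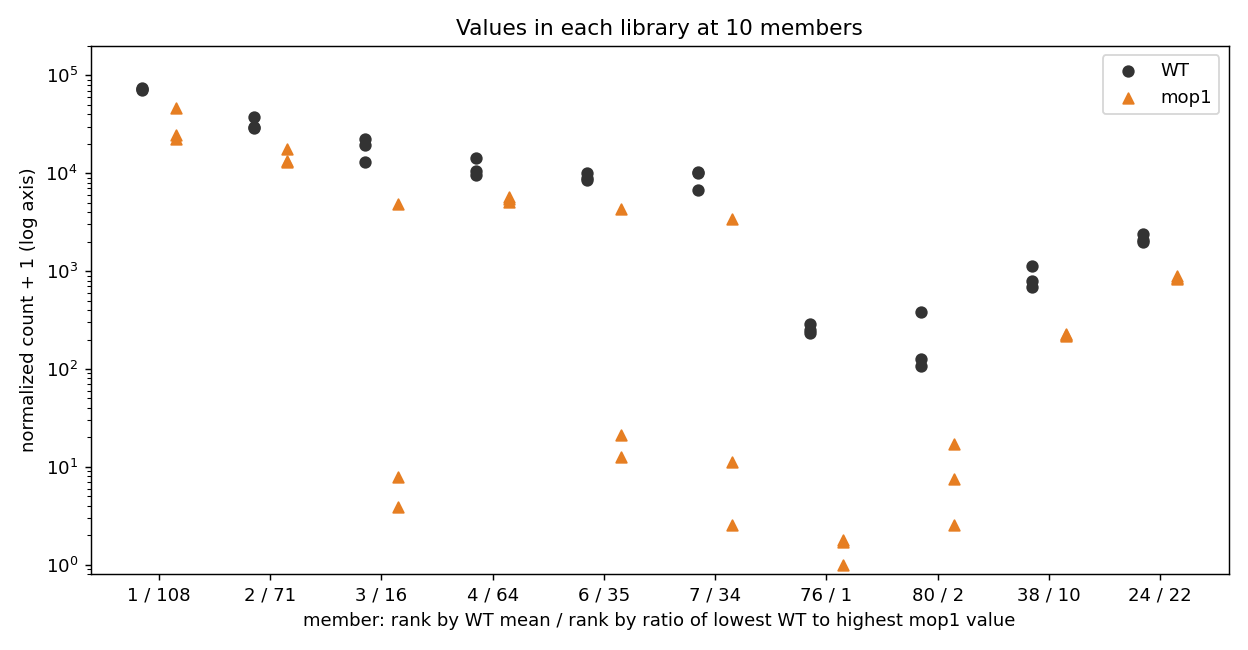
Normalized count plus 1 (log axis) in each WT (circles) and mop1 (triangles) library at 10 members, labelled by rank by WT mean and rank by ratio of lowest WT to highest mop1 value. The members ranked 3, 6 and 7 by WT mean show 1 mop1 library at 26.5%, 46.8% and 37.1% of the WT mean and the others far lower, while the members ranked 24 and 38 show mop1 libraries that coincide.

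The number of members depended on which libraries were used. The same rule gave 515 genes without mop1 replicate 1, 383 without mop1 replicate 3, 195 without WT replicate 1 and 186 without WT replicate 3, and each of these sets held 115 to 118 of the 118. Without WT replicate 2 it gave 167 genes, and without mop1 replicate 2 it gave 136 genes, of which 89 were members. With a library left out the ratio has fewer values to meet. Without mop1 replicate 3 the condition on that library also fell away, so the count of 383 reflects both changes. Without mop1 replicate 2, the condition on mop1 replicate 3 was set against mop1 replicate 1 alone, which is stricter, and 29 members had mop1 replicate 1 at least 4 times mop1 replicate 3.

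At the thresholds, the member with the smallest ratio had 3935, 3944 and 5138 in WT and 2419, 2397 and 2623 in mop1. The nearest gene outside had 109, 108 and 78.9 in WT and 48.9, 52.6 and 50.9 in mop1. At both genes the mop1 libraries were even and close to the ratio of 1.5. Ratios from 1.5 to 1.6 were found at 37 members, and ratios from 1.4 to 1.5 at 61 genes that met the other conditions. By the mean of all libraries, the nearest values were 51.7 inside and 48.1 outside.

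In limma's fit over all tested genes, 3 genes (0.013%) were lower in mop1 at an adjusted p of 0.05, and 1 of them was a member, Zm00001eb018590. That gene counted as tested through its WT libraries alone. With a minimum mean of 50 in place of that filter, limma's adjusted p for it was 0.068. DESeq2, run on whole reads recovered from the values, called 225 genes lower (0.972%), 81 of them members, and edgeR's quasi-likelihood test called 1 gene (0.00432%), the same member. Without mop1 replicate 3, limma called 43 genes lower (0.188%), 12 of them members, and without mop1 replicate 1 it called 49 (0.216%), 23 of them members. Without WT replicate 1, 2 or 3 it called 0 of all tested genes lower, and so 0 members. With the replicate number as a block it called 2 genes (0.00864%), 1 of them a member. Since the rule used the same contrast, nothing is read from these counts.

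Gene IDs gave a property that the rule did not use, apart from the interval it left out. In the ID order of the tested genes, cut into 20 equal bins, the members numbered 1 to 10 per bin, with a median of 6. The median distance between neighbouring members was 129 tested genes and the largest 1148. At 7 places a member followed another within 10 tested genes, and 1 pair was directly adjacent. In that pair, the first gene had 105, 379 and 127 in WT and 16.3, 1.55 and 6.55 in mop1, and the second had 81.7, 77.1 and 115 in WT and 33.4, 45.6 and 18.9 in mop1. Both genes were low in mop1, but WT replicate 2 was the highest WT library at the first and the lowest at the second. Another pair, 7 tested genes apart, shared the loss in mop1 replicates 2 and 3, with 990, 1283 and 1311 in WT and 635, 0 and 2.18 in mop1 at the first and 1719, 2608 and 3537 in WT and 669, 0 and 0.727 in mop1 at the second. The directly adjacent pair were the first members past the end of the left-out interval, and another member followed them 8 tested genes later. Whether neighbours in ID order are copies of each other was not tested. Nor was it tested whether the 7 places differ from a random spread of members.

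**Figure D5:**
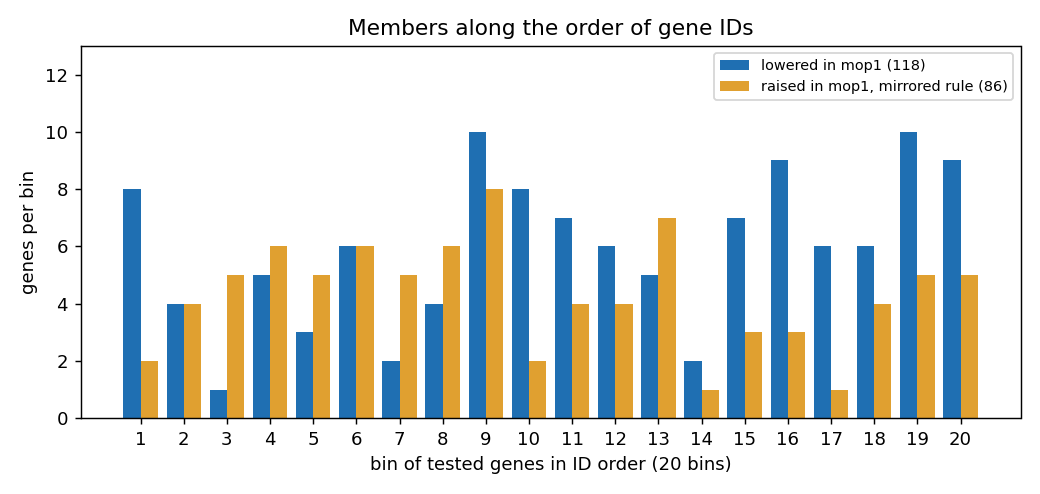
Number of members (blue, 118 genes) and of genes raised in mop1 by the mirrored rule (orange, 86 genes) in each of 20 equal bins of tested genes in ID order. Members are spread along the IDs, with 1 to 10 per bin.

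In the WT libraries, counting error was mostly smaller than the spread between libraries. The fewest reads of any member in a WT library were 66. The median counting error in a WT library was 4.68% of the value, and the median SD between WT libraries was 16.2% of the mean. The spread between WT libraries was the larger at 106 of the 118 members. The same comparison was not made for the mop1 libraries, where many members had few reads.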

How the data were processed

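Total RNA of immature anthers was sequenced in 3 mop1 and 3 WT libraries, as paired-end Illumina reads per the labels' protocols. The deposited file holds 1 gene-level signal per library, which the authors call normalized counts. The submitters' processing notes name Trimmomatic 0.39, HISAT2, SAMtools, HTSeq and DESeq2, without their roles. Not given in the sources used here are the genome build, annotation and strand setting. Reads of genes that overlap, lie antisense or are near copies may therefore have been split between IDs. Of 49888 genes in the reference table (assembly Zm-B73-REFERENCE-NAM-5.0), 0 shared an ID with the deposited table.

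Each deposited value was a whole multiple of its column's smallest value (100% of values, within 0.01 of a read), and division by that value recovered whole reads. The members, classes and lists were chosen with earlier results of these data known. The rule for printed IDs was the member with the largest ratio and the member with the highest WT mean. The fit used limma 3.58.1 (R 4.3.3) on log2(normalized count + 1), with trend and robust empirical Bayes steps, two-sided, and Benjamini-Hochberg adjustment over 23150 genes with at least 10 in at least 3 libraries. Such fold changes understate the change of low genes. edgeR 4.0.16 and DESeq2 1.42.0 were run on the recovered reads. All tools were also run on simulated data, and the outcome is not given here. No simulated library was set apart as mop1 replicate 3 was, so the simulation does not cover that feature. Counting intervals are exact 95% intervals and cover counting error only.

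The fit had no block. Within-group deviations of libraries with the same number correlated at 0.15, 0.25 and 0.49 across genes, and the numbers were therefore treated as pairs in a blocked alternative. The labels state no pairing, and mop1 replicate 1 correlated more with WT replicate 2 (0.33). Alternatives were other scalings, pseudocounts, filters, thresholds and tools, a replicate block, and leaving out each library.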

Additional observations from a re-analysis of the deposited data

How the results depend on the processing

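The number of members, 118, was 107 with TMM scaling, 111 with DESeq2's size factors and 95 after quantile normalization, with 104, 102 and 90 of the original members among them. It was 145 and 92 with a minimum mean of 20 and 100, 140 with no condition on mop1 replicate 3 and 126 with the left-out IDs kept in. A ratio looser than 1.5 gave 398 genes and a ratio of 2 gave 34, as the threshold itself determines. Leaving out 1 library gave 136 to 515. The median log2 difference over the members, -1.51, ranged from -1.68 to -1.38 when 1 library was left out, and from -1.51 to -1.45 over other pseudocounts and scalings.

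The count of members called by limma was 1, of 3 genes called lower among all tested. It was 0 at a minimum mean of 50, where 0 of 19457 genes were called lower. DESeq2 called 81, of 225 genes called lower, and edgeR 1, the only gene it called lower. Leaving out 1 library gave 0 to 23 members, of 0 to 49 genes called lower. The highest count came without mop1 replicate 1. When any WT library was left out, limma called 0 genes lower, and so 0 of the 117 members tested. Zm00001eb018590 was not tested without a WT library, since fewer than 3 libraries then reached 10. Fewer genes or libraries enter some of these fits, and beyond that the cause was not tested. With the replicate block the count of members called by limma was also 1, but the labels do not state the pairs that this block assumes. The log2 difference ranged from -8.96 to -5.56 over 12 alternatives at Zm00001eb018590 and from -1.63 to -0.77 over 15 at Zm00001eb372830, and the choice of members fixes these directions. The class counts without single mop1 libraries were added after seeing the data. With no condition on mop1 replicate 3, 34 genes had mop1 replicate 1 at least 4 times both others.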
